A study of Mus musculus with 6 samples.

Results

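The genes described here represent the axoneme of the motile cilium, the microtubule shaft that beats on the airway surface. Not all are parts of it. They were chosen by symbol: the dynein genes Dnah, Dnai or Dnaic and Dnali1, the numbered Cfap, Rsph, Tekt, Drc, Spag and Dnaaf genes, and Ccdc39, Ccdc40, Foxj1, Rfx2, Rfx3 and Tppp3. The rule found 82 genes among 29753 gene rows. A total of 81 passed the filter on low counts, which left 17686 genes to test. Spag6, the remaining gene, had 0 to 5 counts per library, and its near relative Spag6l was measured well.

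The samples are whole lungs of balb/c mice, all of which received K7M2 cells, a mouse osteosarcoma line, by orthotopic implantation. One group was taken at D0 and the other at D14 after implantation, with 3 libraries each. No D14 group without implanted cells was analysed here, so effects of the tumour, the procedure, the age of the animals and the day of collection cannot be told apart. The labels number the libraries as biological replicates without tying each to a mouse, and the p-values reflect library spread, which may be technical in part. The tissue label gives lungs, although the extraction protocol speaks of BMDMs. Sftpc, the surfactant protein that defines alveolar type 2 cells, stood at 12446 to 34630 CPM, the unit of counts scaled to library size, here with TMM factors.

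Library totals ran from 14878101 to 17385006 counts. D0 replicate 3 stood apart in a way that bears on long genes such as the dynein heavy chains. In that library the trend of other genes lay 0.37 above their own means (log2 CPM) at a transcript length of 1000 bases and −0.59 from them at 13000 bases. At 13000 bases the trend in D14 replicate 3 was at 0.30. Results for long genes are therefore given with this trend taken out as well, an alternative chosen after seeing the data.

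Motile cilia move mucus along the airways. Each axoneme is a ring of doublet microtubules around a central pair. Outer and inner dynein arms, the motors, make neighbouring doublets slide. Radial spokes and the central apparatus regulate the motors, the nexin-dynein regulatory complex links the doublets, and tektins and other inner proteins line the tubules. Dynein arms are assembled in the cytoplasm by dedicated factors. Foxj1 and the RFX factors switch on this set of genes in ciliated cells, and mutations in many of them cause primary ciliary dyskinesia.

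RFX factors bind paired half-sites, so the promoter sequences of the genes were searched for one half-site spelling. RefSeq promoter windows for GRCm38.p6, from 250 bases before to 50 bases after the start, matched 67 of the 82 genes. The letters GTTGCC, on either strand, occurred in 25 of these 67 genes (37.3%) and in 14.1% of 27025 genes in the table. The spelling GTTNCCNNG, which overlaps it, occurred in 32 genes (47.8%) and in 18.8% of all genes. The forkhead core TGTTTAC occurred in 4 genes (5.97%) and in 4.05% of all genes. These 3 spellings were picked from 18 tried with the shares in view, of which 15 had a higher share in the cilium genes than in all genes, so the shares are a description only. The exact palindrome of 14 letters, 1 of 8 spellings of that length, was found in 0 of the 67 genes and in 0.0222% of all genes, and the loosest of them in 10 genes (14.9%) and in 2.16% of all genes.

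Windows with GTTGCC before the start were taken for genes outside chromosomes 8 and 18, which leaves out Cfap20 and Cfap53 among others. Of the 18 windows found, the 5 that touch no annotated exon are shown to let the spacing around the half-site be seen. That limit was set after the windows were seen. Cfap74 and Tekt2 each gave more than 1 of the 18, and another Tekt2 window around the same letters touches an exon. Capitals mark GTTGCC or its reverse complement GGCAAC, and each sequence runs 5′ to 3′ on the strand of the gene.
Rfx2 (chr17:56831089-56831154, minus strand): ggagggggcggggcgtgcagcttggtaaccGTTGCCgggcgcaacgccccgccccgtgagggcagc
Spag16 (chr1:69826837-69826902, plus strand): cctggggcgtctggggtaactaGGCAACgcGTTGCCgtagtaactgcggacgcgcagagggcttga
Tekt1 (chr11:72361883-72361927, minus strand): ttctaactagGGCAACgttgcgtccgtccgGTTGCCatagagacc
Tekt2 (chr4:126325689-126325740, minus strand): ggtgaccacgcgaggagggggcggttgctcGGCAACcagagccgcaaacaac
Cfap300 (chr9:8042962-8043027, minus strand): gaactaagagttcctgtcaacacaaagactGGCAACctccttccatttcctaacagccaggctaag
Spag16, a central apparatus protein, and Tekt1, a tektin, each held 2 matches in the window, in the order GGCAAC then GTTGCC. In the exact palindrome of 14 letters GTTGCC comes first. The window of Cfap298, left out because it touches an exon, held 2 matches in that order. Rfx2, itself an RFX factor, held 1. A match is a string of letters and not a measured binding site.

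None of the 81 tested cilium genes changed between D0 and D14 at an adjusted p under 0.05 (edgeR quasi-likelihood test, Benjamini-Hochberg over all tested genes), where 0.0339% of all genes, or 6, were called. DESeq2 and limma-voom also called 0 of them. The smallest adjusted p was 0.364, for Dnah5. At an unadjusted p under 0.05 there were 2, Dnah5 and Dnah17, against 12.6% of all genes. Positive log2 fold changes were found in 50 genes and negative ones in 31, with a median of 0.09 beside −0.03 over all genes, of which 46.9% were positive. Without scaling factors 43 were positive and the median was 0.02. A p that misses the threshold does not show that levels were equal.

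Separate ranges at the 2 times were found in 9 of 81 genes (11.1%), against 21.6% of all genes. D14 lay higher in 3 of them (Dnah5, Rfx2 and Spag9), where the share over all genes was 10.9%. It lay lower in 6 (Dnah17, Tekt5, Cfap20, Dnaaf2, Dnaaf3 and Dnaaf4), where that share was 10.7%. With the length trend taken out, 5 of 81 genes (6.17%) had separate ranges, against 21.0% of all genes. D14 then lay higher in 2 and lower in 3, and Spag9, Tekt5, Dnaaf3 and Dnaaf4 overlapped. D0 replicate 1 weighs on the count of 9. Without it, 41 of 81 genes (50.6%) did not overlap, 35 of them with D14 higher, against 39.9% of all genes. The median log2 fold change was then 0.31, beside −0.01 over all genes. An unadjusted p under 0.05 was then found in 13 of 81 cilium genes, a smaller share than the 18.7% of all genes, and 0 cilium genes were called.

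**Figure D1:**
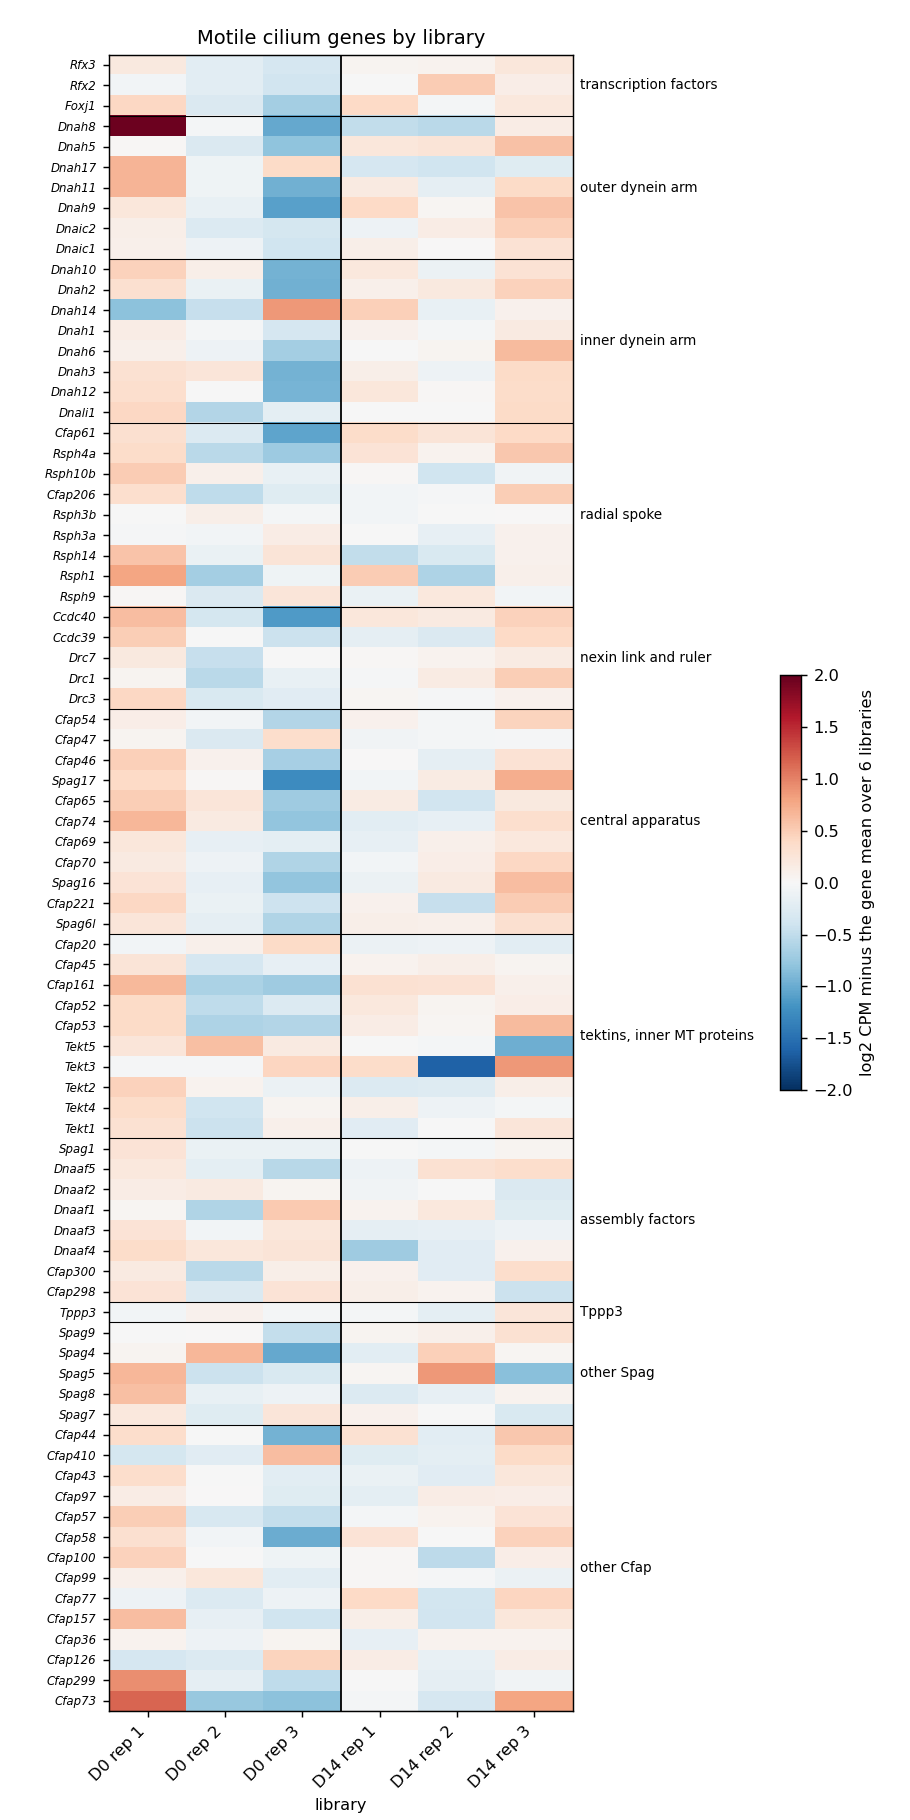
Log2 CPM of each of the 81 tested genes (rows, by role) in each of the 6 libraries (columns), as the difference from the mean of that gene over the libraries. D0 replicate 1 is the highest D0 library in 63 genes and D0 replicate 3 the lowest in 49.

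The cilium genes were more spread among the D0 libraries than among the D14 libraries, given here as a description. Their median deviation from the gene means (log2 CPM) was 0.28, −0.15 and −0.27 in D0 replicates 1, 2 and 3, and 0.02, −0.02 and 0.22 in the D14 libraries. With the length trend taken out these became 0.26, −0.16 and −0.32 at D0 and 0.02, −0.02 and 0.20 at D14. The D14 range was narrower than the D0 range in 68 of 81 genes (84.0%), against 65.9% of all genes. This was not particular to the cilium genes. It held in 33 of 36 ciliated markers outside the symbol rule (91.7%), 22 of 27 intraflagellar transport genes (81.5%) and 9 of 10 alveolar type 2 markers. Lower shares were found in other axonemal genes (18 of 31, 58.1%) and in BBSome and transition zone genes (11 of 20, 55.0%). D0 replicate 1 was the highest D0 library in 77.8% of the cilium genes and in 38.3% of all genes, and D0 replicate 3 the lowest in 60.5% and 41.1%. All 3 D14 values lay inside the D0 range in 33 genes (40.7%), against 23.0% of all genes. In whole lung, fewer ciliated cells and less RNA per ciliated cell cannot be told apart.

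Foxj1, the forkhead factor that drives motile ciliogenesis (chr11:116330704-116335399, GENCODE for GRCm38), measured 61.1, 37.4 and 28.6 CPM (D0) against 60.9, 44.6 and 53.005 CPM (D14). The groups overlap, since D0 replicate 1 is as high as the highest D14 library. Its means were 42.4 ± 16.8 and 52.8 ± 8.12 CPM (SD, n = 3 each). The fitted difference was 0.32 ± 0.28 (SE) on the log2 scale, with edgeR adjusted p = 0.624. Rfx2, an RFX factor of cilium genes (chr17:56775897-56831013), measured 21.0, 18.8 and 16.7 CPM (D0) against 21.7, 30.9 and 24.0 CPM (D14). Every D14 library was above every D0 library, by a narrow gap between D0 replicate 1 and D14 replicate 1. The log2 fold change was 0.44 (SE 0.19; adjusted p = 0.398). Rfx3, its relative (chr19:27761721-28011166), measured 12.6 to 18.3 CPM at D0 and 16.5 to 18.6 at D14, with a log2 fold change of 0.21 that became −0.07 with the length trend taken out. None of these 3 factors passed the test, and without D0 replicate 3 their median log2 fold change of 0.32 was 0.10.

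**Figure D2:**
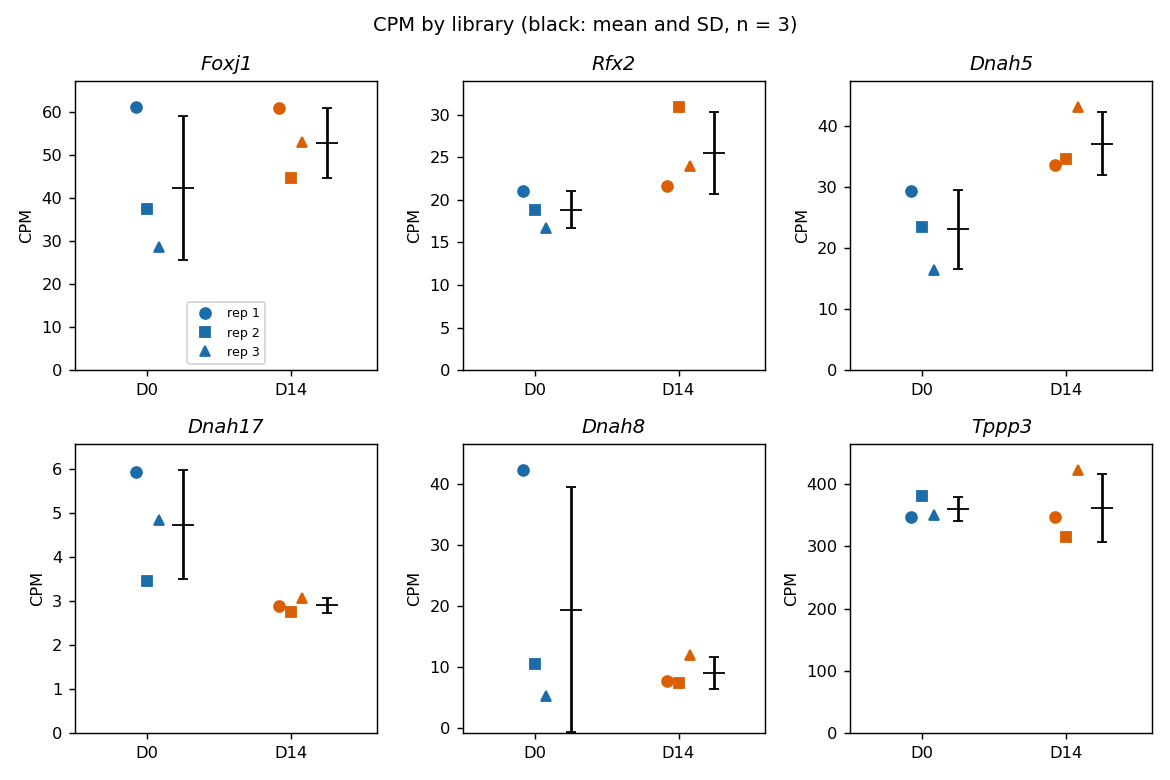
CPM of 6 genes in each library, with a marker for each replicate number and the group mean with its SD (n = 3) in black. Dnah5 and Rfx2 lie higher at D14 in every library, Dnah17 lies lower, and the D0 spread of Dnah8 rests on 1 library at 42.3 CPM.

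Outer dynein arms carry the heavy chain motors Dnah5, Dnah9 and Dnah11 and the intermediate chains Dnaic1 and Dnaic2. Dnah5 (chr15:28203752-28472052) measured 29.4, 23.5 and 16.4 CPM (D0) against 33.7, 34.6 and 43.1 CPM (D14). The groups are separate, at 23.1 ± 6.47 and 37.1 ± 5.19 CPM (SD, n = 3 each). The log2 fold change of 0.68 (SE 0.23) had an adjusted p of 0.364 in edgeR, and was 0.36 with the length trend taken out. Dnah9, an outer arm motor (chr11:65831282-66168551), measured 17.7, 13.5 and 7.02 CPM (D0) against 19.9, 15.4 and 22.4 CPM (D14), which overlap. Its log2 fold change of 0.59 ± 0.33 (SE), at edgeR adjusted p = 0.463, was 0.32 without the trend and 0.31 without D0 replicate 3. Dnaic1 and Dnaic2, whose transcripts are short beside those of the heavy chains, had log2 fold changes of 0.26 and 0.35. Their edgeR adjusted p were 0.583 and 0.510, and the ranges of both overlap. Enho, opposite to Dnaic1, had 340 to 500 counts and a log2 fold change of 0.29. Its part in the Dnaic1 values was not tested.

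Dnah17 and Dnah8 are outer arm heavy chains best known from the sperm tail, and both had negative log2 fold changes. Dnah17 (chr11:118021723-118130634) measured 5.93, 3.45 and 4.85 CPM (D0) against 2.90, 2.74 and 3.08 CPM (D14), on 43 to 102 counts. Every D14 library was below every D0 library, with a log2 fold change of −0.71 ± 0.28 (SE) at edgeR adjusted p = 0.380, and of −1.08 with the length trend taken out. Pgs1, which overlaps Dnah17 on the opposite strand, had 1270 to 1731 counts. Dnah8 (chr17:30624354-30877365), chosen after its values were seen, reached 42.3 CPM in D0 replicate 1 against values between 5.27 and 11.99 CPM elsewhere. Glo1, a gene on the opposite strand that overlaps it, had 719 counts in that library and 420 to 502 elsewhere. The sources used here do not say whether counting used strand, so reads of either pair may not be separable. Any part of this in the Dnah17 and Dnah8 values was not tested. Of the male germ cell markers listed beside them, Prm1, Prm2, Tnp1, Tnp2 and Odf1 were not analysed here. Akap4 and Ldhc had 0 to 3 counts in a library, Ddx4 3 to 14, Gapdhs 13 to 25 and Tssk6 6 to 36. Tssk6 had a negative log2 fold change like Dnah17, −1.22 (SE 0.50; unadjusted p = 0.0423 and adjusted p = 0.388, edgeR), with ranges that overlap. The part of germ cell RNA in the Dnah17 and Dnah8 values was not tested.

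Inner dynein arms, which shape the beat, had positive log2 fold changes in all 8 tested genes, from 0.12 to 0.44, with none called and every range overlapping. Apart from Dnali1 these genes are longer than 10000 bases. Of all 375 tested genes of that length, 301 were positive, with a median of 0.26. Dnah2os, opposite to Dnah2, had 67 to 328 counts. Lbr, opposite to Dnah14, had 921 to 1571, where Dnah14 had 15 to 44. Their part in the values was not tested. Dnah6 measured 37.4, 32.4 and 21.6 CPM (D0) against 34.4, 36.2 and 53.8 CPM (D14). Dnah3 measured 27.8, 26.5 and 11.7 CPM (D0) against 24.3, 21.0 and 29.2 CPM (D14). In both genes the low library was D0 replicate 3. The median of the 8 genes was 0.18, 0.09 without D0 replicate 3 and about 0 (−0.0049) with the length trend taken out. The common sign was therefore not kept once the trend was removed, and Dnah3 then stood at −0.08.

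**Figure D3:**
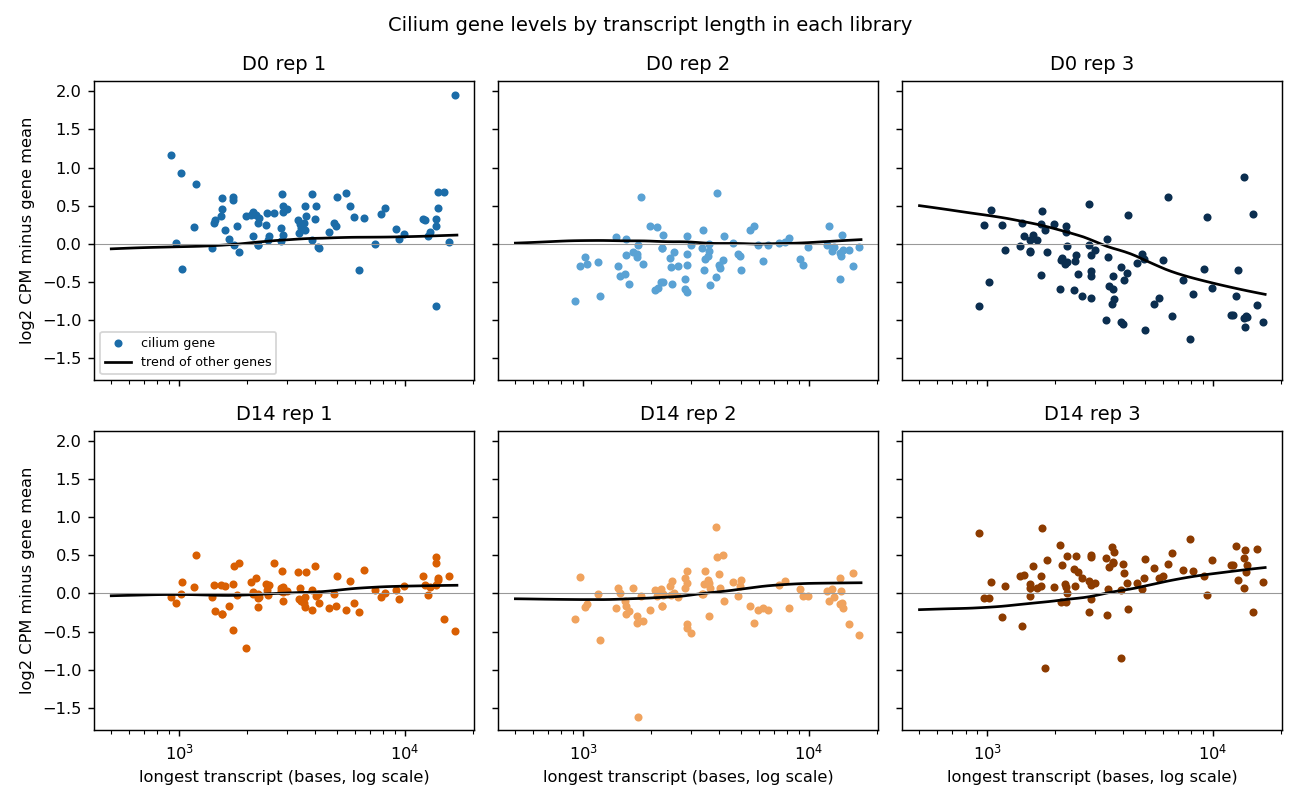
Log2 CPM of each cilium gene minus its mean over 6 libraries, against the length of its longest transcript (log axis), in 1 panel per library; the line is the trend of the other genes. In D0 replicate 3 the line falls from above 0 for short genes to −0.59 at 13000 bases, and the cilium genes fall with it.

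All 12 cilium genes longer than 10000 bases are dynein heavy chains. Their median deviation in D0 replicate 3 was −0.94 (log2 CPM), and −0.34 with the length trend taken out. In D14 replicate 3 it was 0.38 and then 0.09. Across the 81 genes the Spearman correlation of length with log2 fold change was 0.319, and across 17525 tested genes it was 0.356. Without D0 replicate 3 these were 0.10 and 0.14, and with the length trend taken out −0.23 and 0.0026. The trend was fitted to 17444 of the same tested genes, so a value near 0 over all genes follows from the fit. All are correlations across genes of the same libraries, which are not independent replicates. The 12 heavy chains had a median log2 fold change of 0.16, and −0.10 with the trend taken out. Over all 375 tested genes longer than 10000 bases these were 0.26 and −0.03. D0 replicate 1 kept a median deviation of 0.23 in the heavy chains and 0.27 in the other 69 genes after the trend was removed.

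Radial spoke genes were split, with 4 positive and 5 negative log2 fold changes and a median of −0.04. Rsph3a and Rsph3b, near-identical copies that may share reads and are uncertain on their own, measured 21.7, 21.3 and 24.6 CPM and 19.3, 21.0 and 19.03 CPM at D0. At D14 they measured 22.0, 19.7 and 23.3 CPM and 18.8, 19.3 and 19.5 CPM. Both overlapped between the days, with log2 fold changes of −0.06 (SE 0.15) and −0.04 (SE 0.14). Rsph3b kept within 18.8 to 21.0 CPM in all 6 libraries. Rsph4a, a spoke head protein chosen after its values were seen, measured 13.1, 6.96 and 6.11 CPM (D0) against 12.3, 10.7 and 14.8 CPM (D14). D0 replicate 1 lies within the D14 range there, and the other D0 libraries lie below it.

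Genes of the nexin-dynein regulatory complex and of the ruler that sets the axonemal repeat, Ccdc39 and Ccdc40, were positive in 4 of 5 with a median of 0.16. Ccdc39 measured 21.2, 14.95 and 11.2 CPM (D0) against 13.3, 12.2 and 19.9 CPM (D14), on 159 to 365 counts. Ttc14, which overlaps it on the opposite strand, had 722 to 1966 counts and the same D0 order, at 114, 83.3 and 50.7 CPM. Ccdc39 is therefore uncertain on its own. Drc3 measured 16.9, 10.3 and 10.9 CPM (D0) against 13.1, 12.6 and 13.6 CPM (D14). In all 5 genes D0 replicate 1 was the highest D0 library, and in 4 of them all D14 values lay inside the D0 range.

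In the central apparatus, 8 of 11 tested genes were positive, with a median of 0.10. Cfap65 measured 44.5, 37.1 and 19.2 CPM (D0) against 35.2, 24.0 and 36.2 CPM (D14), and Cfap69 15.9 to 21.5 CPM and 16.3 to 21.2 CPM. D0 replicate 3 was the lowest D0 library in 10 of the 11 genes. Tektins and inner tubule proteins split evenly, 5 to 5, with a median of 0.03. Tekt5 measured 9.07, 11.8 and 8.71 CPM (D0) against 7.59, 7.46 and 3.85 CPM (D14), below in every library. Its log2 fold change was −0.64 ± 0.30 (SE) at edgeR adjusted p = 0.417, and its ranges overlapped with the length trend taken out. Cfap20, a doublet protein that also occurs outside motile cilia, measured 41.3, 45.8 and 55.8 CPM (D0) against 39.3, 39.9 and 37.1 CPM (D14), with a log2 fold change of −0.30 ± 0.16 (SE) at edgeR adjusted p = 0.449. Cfap45, which lines the doublet lumen, overlapped between the days at 7.03 to 10.8 CPM and 9.29 to 9.76 CPM.

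**Figure D4:**
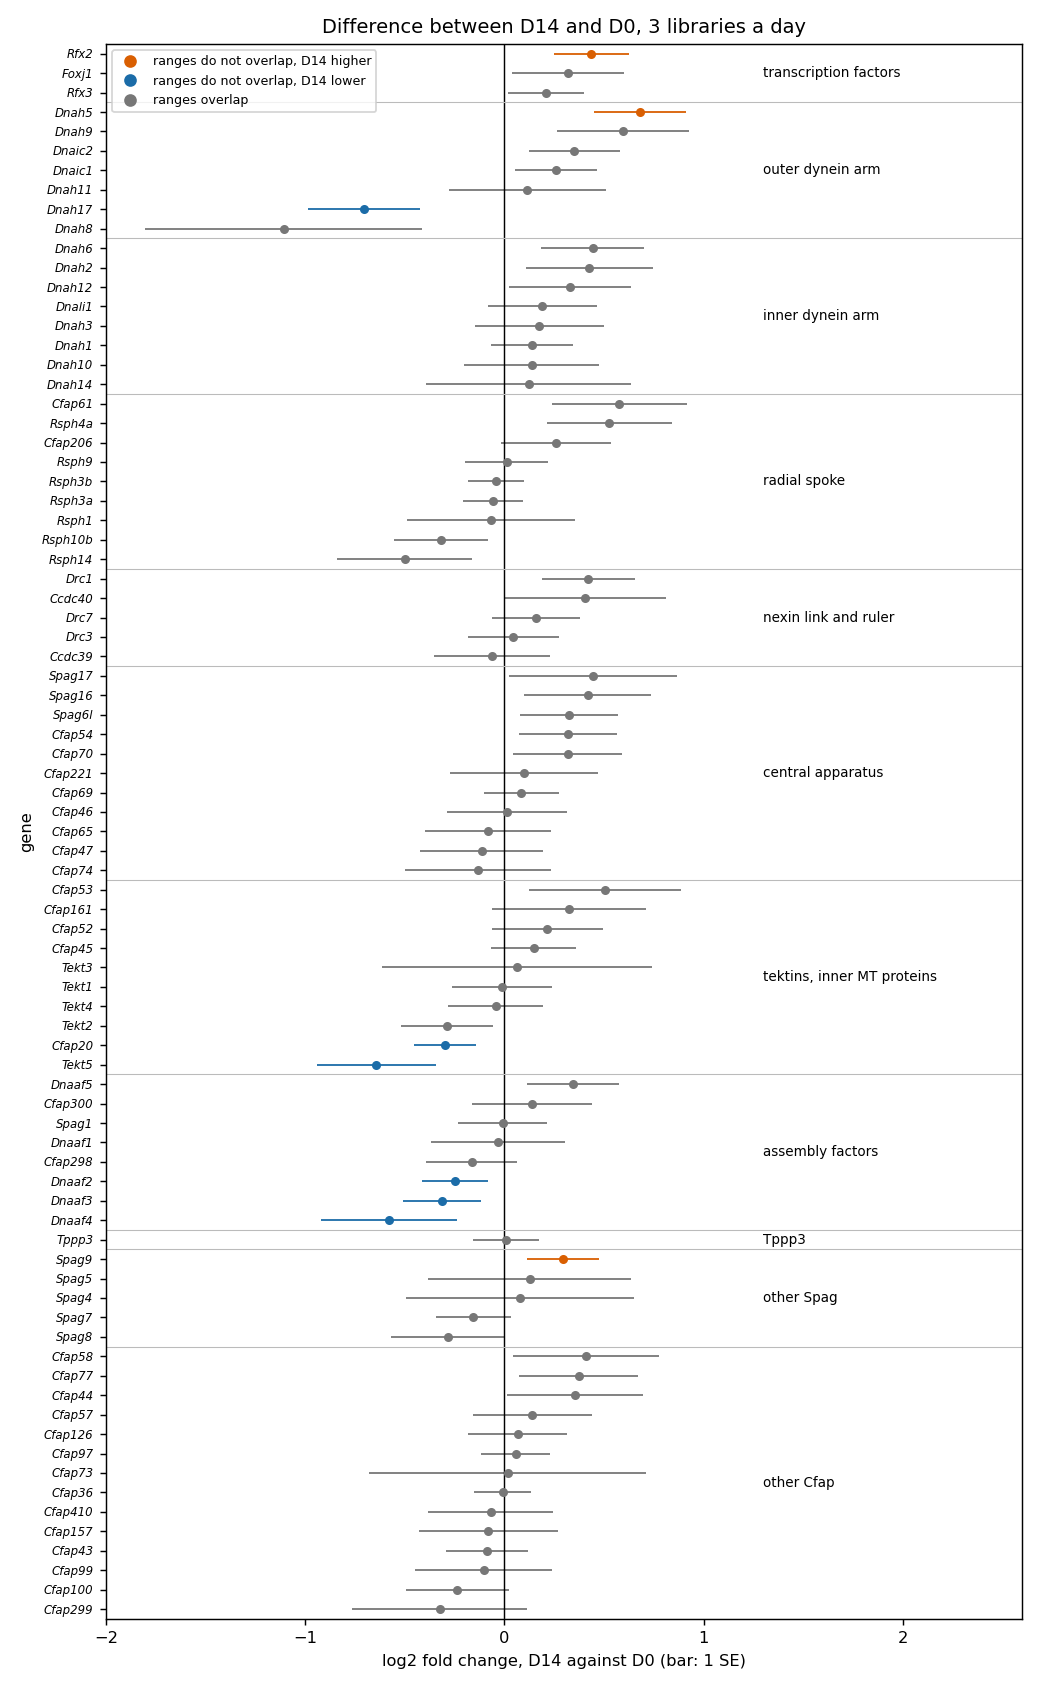
Log2 fold change of D14 against D0 for each of the 81 tested genes, grouped by role, with a bar of 1 SE; colours mark the 3 genes whose D14 values all lie higher and the 6 whose D14 values all lie lower. Inner arm genes are all above 0 and 6 of 8 assembly factors are below 0, and no gene is past the adjusted threshold.

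The dynein arm assembly factors had 2 positive and 6 negative log2 fold changes and a median of −0.10. With the length trend taken out their median was −0.04, close to that of the inner arms and below the 0.32 of the outer arms. A difference between the roles was not tested. Dnaaf3 measured 8.84, 6.96 and 8.57 CPM (D0) against 6.43, 6.44 and 6.73 CPM (D14). Dnaaf4 measured 1.98, 1.79 and 1.83 CPM (D0) against 0.869, 1.28 and 1.602 CPM (D14). Dnaaf2, chosen after its values were seen, measured 13.4, 13.7 and 12.6 CPM (D0) against 11.5, 12.1 and 9.93 CPM (D14). In these 3 genes every D14 library was lower, with log2 fold changes of −0.31, −0.58 and −0.25 and adjusted p from 0.481 to 0.523 (edgeR). With the length trend taken out, the ranges of Dnaaf3 and Dnaaf4 overlapped. Dnaaf5 had a positive estimate, at 17.1 to 29.0 CPM and 23.4 to 32.0 CPM, and Cfap298 a negative one, at 16.995 to 25.2 CPM and 15.5 to 22.6 CPM. Dnaaf3 shares its strand with Tnni3, which overlaps it and had 214 to 804 counts, and Dnaaf4 shares its own with Gm44503, so both are uncertain. Dnaaf2 is uncertain too, since 9330151L19Rik overlaps it on the opposite strand and had 97 to 183 counts. The log2 fold change was −0.60 for 9330151L19Rik and 0.67 for Tnni3, and their part in the values was not tested. Of the 82 genes, 51 overlap another annotated gene, 16 of them on the same strand.

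Tppp3, a microtubule-bundling protein abundant in ciliated cells (chr8:105467493-105471526), was the most abundant of the genes. It measured 347, 381 and 351 CPM (D0) against 348, 315 and 423 CPM (D14), with means of 360 ± 18.98 and 362 ± 55.3 CPM (SD, n = 3 each). Its log2 fold change of 0.01 (SE 0.16) changes sign under several settings. Per kilobase of the longest transcript its D0 level was 258 CPM, ahead of Spag7 at 35.8, Spag9 at 25.5, Cfap36 at 17.2 and Foxj1 at 16.2. Its highest D0 library was D0 replicate 2, as in 7 of the 81 genes.

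Spag5, Spag7 and Spag9 match the symbol rule, but a matching symbol does not make them parts of the axoneme. Spag9, a scaffold of JNK signalling, measured 205.9, 208 and 149 CPM (D0) against 213, 222 and 254 CPM (D14). Its log2 fold change was 0.29 ± 0.18 (SE) at edgeR adjusted p = 0.494. The longest transcript has 7340 bases, and with the length trend taken out the ranges of Spag9 overlapped. Gm11518, opposite to Spag9, had 1667 to 3459 counts. Spag7 overlapped between the days at 33.0 to 46.1 CPM and 31.3 to 41.4 CPM. Leaving out Spag4, Spag5, Spag7, Spag9 and Cfap20 left 76 tested genes with a median of 0.09, of which 7 did not overlap. The remaining Cfap genes, 14 in number, were 7 positive and 7 negative with no separate range, and Cfap36 and Cfap97 ran from 25.4 to 30.04 CPM and from 22.1 to 29.2 CPM over all 6 libraries.

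Other lists of the cilium and its cells were read from the same fit, and 0 genes were called in each. Ciliated cell markers outside the symbol rule were positive in 22 of 36 genes (median 0.14) and other axonemal genes in 21 of 31 (0.09). Regulators of multiciliogenesis were positive in 7 of 14 (0.07), intraflagellar transport genes in 15 of 27 (0.02), BBSome and transition zone genes in 10 of 20 (−0.04), and axonemal tubulins and their modifying enzymes in 7 of 13 (0.03). Summed over the 36 ciliated markers, the level was 669 to 736 CPM at D0 and 746 to 761 CPM at D14, but Ezr, which many epithelia express, made up 342 to 431 CPM of it. Without Ezr, a choice made after seeing the values, the sums overlapped at 394, 261 and 314 CPM (D0) against 348, 315 and 392 CPM (D14). Summed over the 82 cilium genes it was 1728, 1465 and 1293 CPM (D0) against 1549, 1485 and 1792 CPM (D14), where Tppp3 and Spag9 weigh most. Without those 2 genes it was 1176, 876 and 793 CPM (D0) against 988, 949 and 1115 CPM (D14), again with overlap and with D0 replicate 1 highest.

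Markers of other lung cells moved between the libraries as well. Club and secretory markers, of the airway cells that neighbour ciliated cells, were positive in 10 of 12 genes with a median of 0.37. Endothelial markers were positive in 8 of 8 with a median of 0.64. Alveolar type 2 markers were positive in 1 of 10 (−0.25), alveolar type 1 markers in 3 of 10 (−0.28), basal airway markers in 2 of 7 (−0.55), neuroendocrine markers in 2 of 4 (−0.19), male germ cell markers in 0 of 2 (−0.79) and haemoglobin genes in 2 of 5 (−0.04). Haemoglobin genes summed to 9237, 18919 and 52461 CPM in D0 replicates 1, 2 and 3, the reverse of the order of the median deviations of the cilium genes, and to 16434 to 28889 CPM at D14. The endothelial markers had the D0 order of the cilium genes, with median deviations of 0.11, −0.33 and −0.73 and D0 replicate 1 highest in 8 of 8. The ciliated markers outside the symbol rule had that order only in part, at 0.19, −0.36 and −0.04. D0 replicate 1 was the highest D0 library in 24 of 36 of them, as in most cilium genes. D0 replicate 2, not 3, was the lowest in 24 of 36. Other axonemal genes stood at 0.20, −0.25 and −0.17. The part of cell makeup or blood content in the cilium gene values was not tested.

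**Figure D5:**
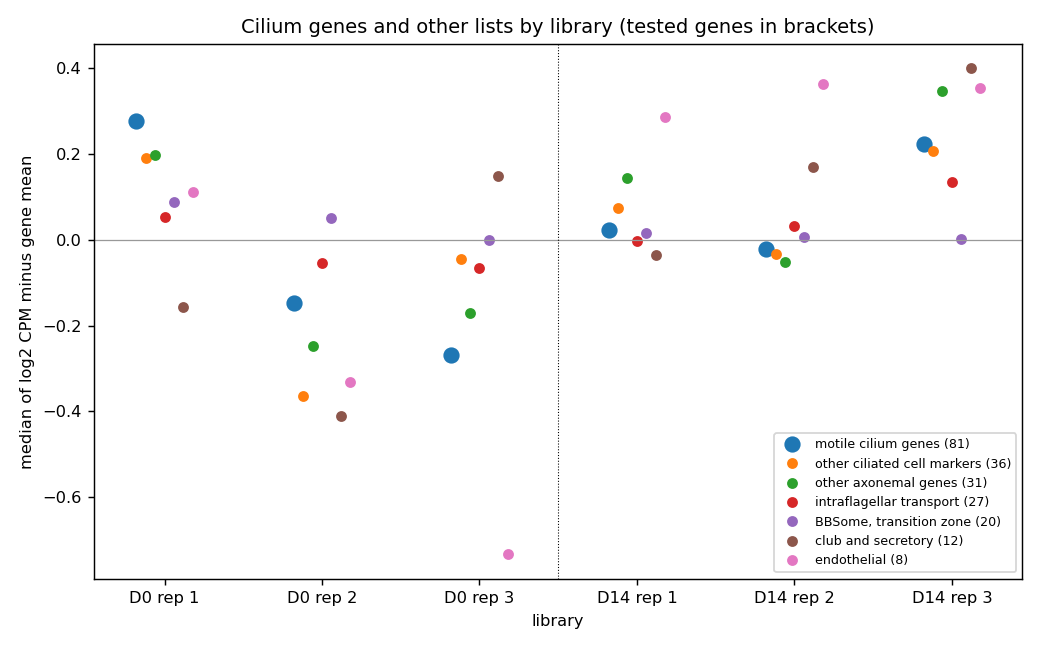
Median over the tested genes of each list of log2 CPM minus the gene mean, in each library. The cilium genes stand at 0.28 in D0 replicate 1 and −0.27 in D0 replicate 3, and the endothelial markers are lowest, at −0.73, in D0 replicate 3.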

How the data were processed

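Bulk RNA-seq of lungs at D0 and D14 gave 3 libraries per day. Values in the authors' table are estimated counts by gene symbol without depth scaling, given there as whole numbers and used as they stand. The submitters' processing notes list HISAT2 2.1.0, StringTie 1.3.4b, edgeR, CASAVA 1.8 and the build GRCm38 without roles. How reads were counted, whether by strand, and against which annotation is not given in the sources used here. Of 29757 lines, 4 empty or displaced lines (for Tnf and Tgfb1) were left out, and 50 repeat a symbol. Library totals were 14878101 to 17385006.

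The two-sided quasi-likelihood test of edgeR 4.0.16 in R 4.3.3 (TMM factors, default low count filter, robust estimation, no covariate) was fitted to all 17686 genes, with Benjamini-Hochberg adjustment and a threshold of 0.05. Log2 CPM used a prior count of 2. Calls were repeated with DESeq2 1.42.0, limma-voom in limma 3.58.1 and the alternatives below. Simulated counts with known changes were used to check the fit. Lengths are of the longest transcript in GENCODE for GRCm38, and the length trend is a lowess fit (span 0.3) per library on 17444 other genes.

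Named genes are Foxj1, Rfx2, Rfx3, Tppp3, the 2 most abundant tested members of each role, every member past the threshold, and up to 5 per direction with the smallest p among those whose groups do not overlap. The members and lists were chosen with earlier results of these data known. The labels do not say whether replicate numbers pair the samples. Same-number correlations of deviations were 0.119, −0.0548 and −0.0972, which cannot settle it with 3 libraries per group. With 3 libraries per group an exact permutation test reaches no p below 0.1, so none was used. Floors of 3 counts correspond to 0.173 to 0.202 CPM and cover counting error only.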

Additional observations from a re-analysis of the deposited data

How the results depend on the processing

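The number of cilium genes called stayed at 0 under every setting run: each library left out, the replicate block, RLE factors, DESeq2, no scaling factors, limma-voom, no robust estimation, no low count filter, at least 1 CPM in 3 libraries, and the length trend as an offset, added after seeing the data. Over all genes the 6 calls became 247 with DESeq2, 26 with no low count filter, 0 with the replicate block, 15 with the length offset and 0 to 22 with 1 library left out. Cilium genes with separate ranges, 9 at first, numbered 5 with the length offset and 12 to 41 with 1 library left out. Over all genes that share, 21.6% at first, was 21.0% with the offset and 27.5% to 39.9% with 1 library left out. The median log2 fold change of the cilium genes, 0.09 at first, ran from 0.0076 to 0.31 with 1 library left out. The highest count and median came without D0 replicate 1. With the replicate number as a block the median was 0.10. Whether the numbers pair the samples is not known. D0 replicate 1 correlated best with D14 replicate 1 (0.119), and D0 replicates 2 and 3 with a D14 library of another number.

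Signs turned in genes with no call. With the length offset the log2 fold change was −0.067 for Rfx3, −0.082 for Dnah3, 0.065 for Rsph3a, 0.070 for Rsph3b, −0.015 for Cfap69, 0.013 for Cfap298, 0.043 for Spag7, 0.16 for Cfap36 and −0.018 for Cfap97. Tppp3 was −0.00094 with limma-voom, −0.061 without scaling factors and −0.0011 with the block. Without scaling factors Drc3 was −0.036 and Cfap97 −0.023. Cfap36 was 0.013 with DESeq2, 0.0056 with RLE factors and 0.0067 with no low count filter. With 1 library left out, Tppp3 ran from −0.12 to 0.10, Dnah3 from −0.13 to 0.39, Rsph3a from −0.11 to 0.013, Rsph3b from −0.069 to 0.0066, Ccdc39 from −0.31 to 0.22, Drc3 from −0.082 to 0.31, Cfap65 from −0.36 to 0.18, Cfap36 from −0.056 to 0.074 and Cfap97 from −0.045 to 0.17. The causes were not tested.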
